A study of Mus musculus with 8 samples.

Results

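The genes described here encode receptor chains for interleukin-4 (IL-4), IL-13, IL-15, IL-7, IL-10 and IL-17 together with the cytokines IL-15 and IL-10 themselves, 10 genes of the 24584 in the expression tables. They were taken by symbol: Il4ra, Il13ra1, Il15, Il15ra, Il2rg, Il7r, Il10, Il10ra, Il10rb and Il17ra, of which 8 code for receptor chains and 2 for cytokines. RNA-seq was performed on lung tissue of male Institute of Cancer Research (ICR) mice, an outbred stock, aged 6 to 8 weeks, labelled as wild type. The LPS group, 4 samples, received an intraperitoneal injection of lipopolysaccharide (LPS) from Escherichia coli O111:B4 at 5 mg/kg, which models septic lung injury. The LPS + Tan group, 4 samples, received in addition 50 mg/kg tangeretin, a flavonoid of citrus peel, by the same route 30 min ahead of LPS. All lungs were taken 12 h after LPS, so both groups carry the LPS exposure, and no untreated lung and no lung given tangeretin alone was analysed here. The question is whether RNA for these receptors and cytokines differed between LPS-injured lungs with and without tangeretin.

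Except for IL-17, the cytokines of this group signal through paired receptor chains that bring Janus kinases (JAK) together and activate STAT transcription factors. Il2rg encodes the common gamma chain, which pairs with Il4ra for IL-4, with Il7r for IL-7 and with Il2rb for IL-15, while Il4ra pairs with Il13ra1 in the receptor that binds both IL-4 and IL-13 on epithelium, macrophages and stroma. IL-15 is unusual in that the cell that makes it also displays it, bound to IL-15 receptor alpha (Il15ra), to natural killer (NK) and T cells. IL-10 restrains macrophage activation through Il10ra and Il10rb, and IL-17 acts on epithelium and fibroblasts through Il17ra to induce chemokines that attract neutrophils.

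The 10 genes lie on 9 chromosomes in RefSeq's GRCm38.p6 annotation. Il4ra spans chr7:125552271-125579474, Il13ra1 chrX:36112108-36171262, Il15 chr8:82331624-82403252, Il15ra chr2:11705172-11733985 and Il2rg chrX:101264385-101268255. Il7r spans chr15:9506159-9529941, Il10 chr1:131019845-131024970, Il10ra chr9:45253837-45269149, Il10rb chr16:91406157-91425834 and Il17ra chr6:120463181-120483731. Of these loci, 2 overlap another annotated gene. The non-coding gene Gm42406 within Il13ra1 had 1 count over all 8 samples, and Mir7086 within Il10ra was not among the genes of the tables.

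RefSeq promoter sequences were at hand for 5 of the 10 genes, with a pair of start sites for Il15ra. The 250 bases before the start are shown for Il15ra and Il13ra1, because these were the genes of the 10 with the lowest p in the comparison given further on. They are written 5′ to 3′ in the direction of transcription, on the plus strand of GRCm38.p6 in each case. Capitals mark a match to GAAANNGAA, a shortened form of the element bound by interferon regulatory factors (IRF).
Il15ra, start site 1, chr2:11705043-11705292: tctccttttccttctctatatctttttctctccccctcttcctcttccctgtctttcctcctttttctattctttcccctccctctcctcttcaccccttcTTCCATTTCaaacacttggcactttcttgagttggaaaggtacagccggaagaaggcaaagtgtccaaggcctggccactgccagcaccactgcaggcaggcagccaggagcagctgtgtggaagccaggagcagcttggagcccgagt
Il15ra, start site 2, chr2:11705462-11705711: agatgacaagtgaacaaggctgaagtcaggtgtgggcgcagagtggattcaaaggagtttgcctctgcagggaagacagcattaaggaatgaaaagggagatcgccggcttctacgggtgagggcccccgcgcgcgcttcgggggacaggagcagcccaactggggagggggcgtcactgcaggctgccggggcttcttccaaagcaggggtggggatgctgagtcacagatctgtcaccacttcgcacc
Il13ra1, chrX:36111858-36112107: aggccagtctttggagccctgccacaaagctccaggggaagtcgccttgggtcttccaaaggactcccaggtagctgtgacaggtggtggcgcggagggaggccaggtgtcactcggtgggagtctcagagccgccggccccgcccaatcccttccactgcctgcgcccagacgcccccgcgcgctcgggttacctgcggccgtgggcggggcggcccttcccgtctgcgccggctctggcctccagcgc

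The 300 bases from 250 before to 50 after each start were searched on both strands for the STAT element TTCNNNGAA, the STAT6 element TTCNNNNGAA, the IRF element GAAANNGAAA, its shortened form GAAANNGAA, and the NF-kB consensus. The full IRF element contains the shortened form, which was chosen after the sequences had been seen. The shortened form was found at both start sites of Il15ra. The match shown in capitals lies on the minus strand at bases -149 to -141 (chr2:11705144-11705152), and the match of start site 2 lies at bases 31 to 39 after the start (chr2:11705742-11705750), within gcaaaagcGAAAGCGAAtactcctt. It was present in 8.56% of the 32851 RefSeq promoters of this length, and the full IRF element, present in 3.44%, was in 0 of the 6 promoters. Il7r held the STAT element at bases -142 to -134 (chr15:9530010-9530018), within tcaggagcTTCAGGGAAtaccaaga, where it reads as a match on both strands, and 8.3% of all promoters held one. Il4ra held an NF-kB consensus at bases 21 to 30 after the start (chr7:125552291-125552300), within ttctcgcaGGAAAGCCCCgcgcggcg, against 4.51% of all promoters. The STAT6 element, in 6.95% of all promoters, was in 0 of the 6, and none of the elements searched was found for Il13ra1 or Il2rg. These matches describe letters and say nothing of binding.

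Depth hardly differed between samples, with 38895654 to 39931970 reads counted on genes. Values below are CPM, read counts scaled to the sample total times its TMM factor (a correction for composition). The groups were compared by edgeR's quasi-likelihood test over the 15706 genes that passed its filter on low counts, with p-values adjusted over all of them (Benjamini-Hochberg). All 10 genes passed the filter, and the lowest count of any of them in a sample was 140, for Il15. In bulk lung tissue, fewer cells of a type and less RNA per cell cannot be told apart. The labels number the samples but do not say that each is a separate mouse, so p-values measure the spread between these samples. Markers of lung cells were present in each sample, with Sftpc, a surfactant gene of alveolar type II cells, between 3359 and 7135 CPM.

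Among the 10 genes, Il15ra and Il13ra1 were lower in the LPS + Tan group at an unadjusted p below 0.05, and 0 were higher. This makes 2 of 10 genes, where 5.12% of all tested genes passed that threshold in either direction, 2.25% were lower and 2.87% higher. The balance of these calls depended on scaling, with 353 lower and 451 higher genes under TMM and 239 and 653 with total counts only. Limma on log2(FPKM + 0.1), which differs in test and transformation as well, gave 272 and 639. In an exact permutation test of each gene on its own, chosen after the data had been seen, 0 of the 10 had p below 0.05. With 4 against 4 samples this p falls below 0.05 only where the groups do not overlap. The result therefore restates the overlap of the groups given below. After adjustment 0 of the 10 passed, as did 0% of all tested genes (0 of 15706 by edgeR's quasi-likelihood test, 804 of them at an unadjusted p below 0.05). At an adjusted p below 0.05, DESeq2 called 35 genes (0.226% of the 15507 genes to which it gave an adjusted p), edgeR's likelihood ratio test 23 (0.146%) and limma-voom 0 (0%), and each called 0 of the 10. None of the 10 had an absolute log2 fold change above 1 together with an unadjusted p below 0.05, the thresholds of the study's methods, which 0.649% of tested genes met. The CPM of the groups overlapped for all 10 genes, while 2.73% of tested genes showed no such overlap. In all, 6 of the 10 had a log2 fold change below 0 and 4 above it, and their median was -0.07 against 0.007 over all tested genes, of which 48.2% lay below 0.

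**Figure D1:**
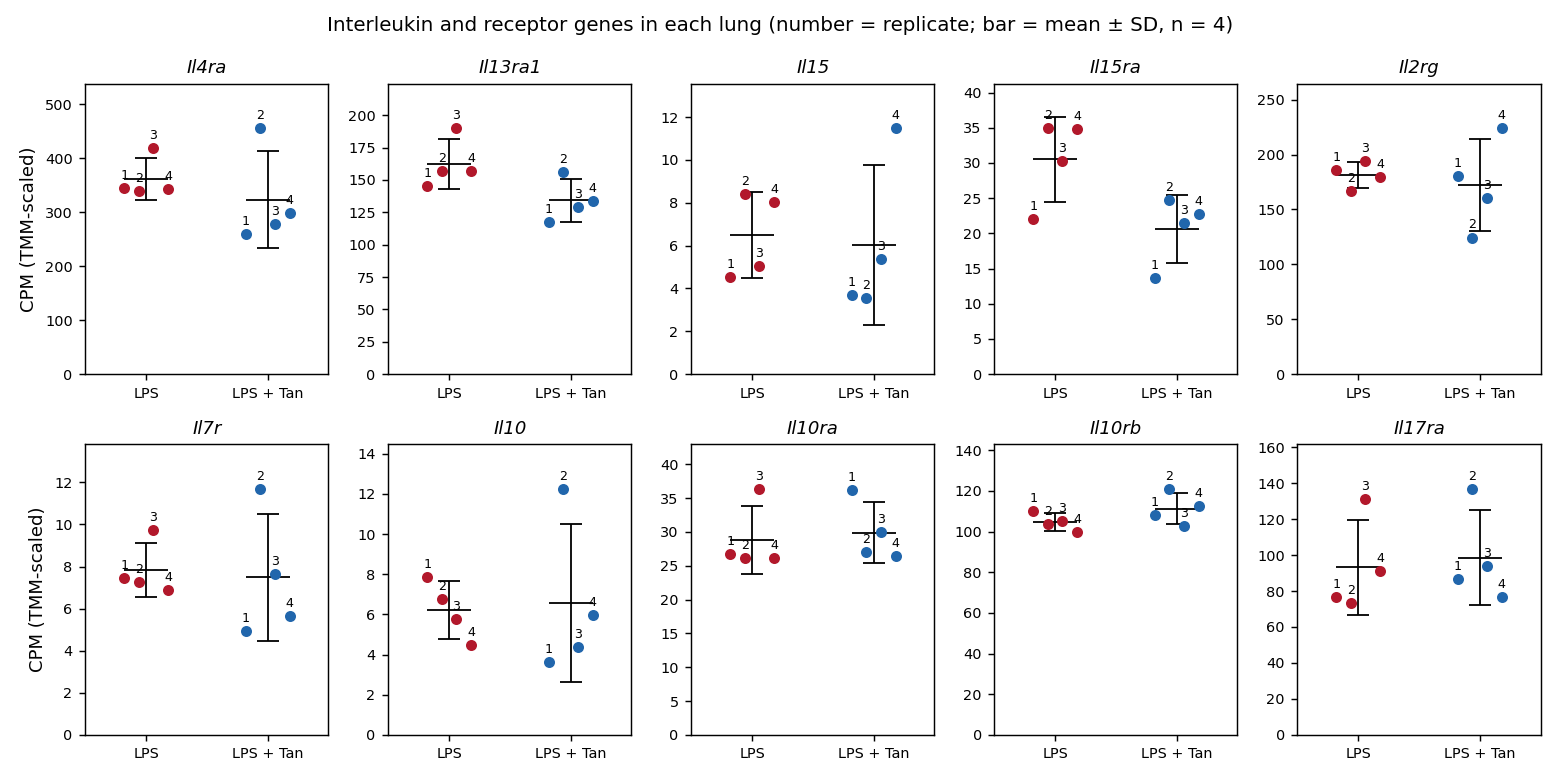
CPM (TMM-scaled, linear axis from 0) of the 10 genes in each lung, with points numbered by replicate and bars for the mean ± SD of 4 samples in the LPS group (red) and the LPS + Tan group (blue). The groups overlap in every panel, all 4 LPS + Tan points of Il15ra and Il13ra1 lie below the median of the LPS group, and LPS + Tan replicate 2 is the highest of the 8 samples for Il4ra, Il7r, Il10, Il10rb and Il17ra.

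Il4ra, the chain shared by the receptors for IL-4 and IL-13, was abundant in LPS-injured lung. It measured 344, 339, 418 and 343 CPM in LPS replicates 1 to 4 and 260, 456, 278 and 298 CPM in LPS + Tan replicates 1 to 4. LPS + Tan replicates 1, 3 and 4 lay below every LPS sample, whereas LPS + Tan replicate 2 lay above all of them. The means were 361 ± 38.2 CPM in the LPS group and 323 ± 89.9 CPM in the LPS + Tan group (SD, n = 4 each). The log2 fold change was -0.16 (standard error 0.17, 95% interval -0.55 to 0.22, edgeR adjusted p = 0.966, exact permutation test of mean log2 CPM p = 0.4). Without LPS + Tan replicate 2 it was -0.38 (standard error 0.11, edgeR adjusted p = 0.299), at an unadjusted p below 0.05, as were 5.06% of all tested genes in the lower direction in that fit.

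Il13ra1, which binds IL-13 and recruits Il4ra, measured 146, 157, 190 and 157 CPM in LPS replicates 1 to 4 and 118, 156, 129 and 134 CPM in LPS + Tan replicates 1 to 4. All 4 LPS + Tan samples lay below the median of the LPS group, and LPS + Tan replicate 2 was above LPS replicate 1. The means were 163 ± 19.2 CPM in the LPS group and 134 ± 16.3 CPM in the LPS + Tan group (SD, n = 4 each). The log2 fold change was -0.28 (standard error 0.11, 95% interval -0.53 to -0.02, edgeR adjusted p = 0.924). The unadjusted call was lost when any of several samples was left out, with log2 fold changes of -0.22, -0.26 and -0.28 without LPS + Tan replicates 1, 3 and 4 and of -0.30, -0.19 and -0.29 without LPS replicates 2, 3 and 4 (edgeR). It was also lost, at -0.23, with total counts only, without TMM factors. An exact permutation test of the mean log2 CPM over all 70 arrangements of the group labels gave p = 0.0571 (two-sided), where 0.0286 is the smallest p that 4 against 4 samples can give. That smallest p is reached only by groups that do not overlap.

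The 2 chains of the IL-13 receptor varied together over the 8 samples, with r = 0.852 (exact permutation test, two-sided, p = 0.00769, adjusted p = 0.0384 over the 5 correlations examined) and Spearman's rho = 0.714 (exact permutation p = 0.0576, adjusted p = 0.288). Without the 2 samples farthest from the median of Il13ra1, which were LPS + Tan replicate 1 and LPS replicate 3, r was 0.765 in 6 samples (exact permutation p = 0.0806), a positive r that was no longer below 0.05. Without the 2 farthest from the median of Il4ra, LPS + Tan replicates 1 and 2, r was 0.969 (exact permutation p = 0.00833). After the group means were subtracted r was 0.885, and over the 8 ways to leave out a sample it ran from 0.786 to 0.98.

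Il15ra, the chain that binds IL-15 and presents it to lymphocytes, had the lowest p of the 10 genes and ranked 280 of 15706 by p. It measured 22.1, 34.98, 30.2 and 34.8 CPM in LPS replicates 1 to 4 and 13.7, 24.7, 21.4 and 22.8 CPM in LPS + Tan replicates 1 to 4. All 4 LPS + Tan samples were below the LPS median and 2 of them, replicates 1 and 3, were below every LPS sample, with LPS replicate 1 inside the range of the LPS + Tan group. The means were 30.5 ± 6.05 CPM in the LPS group and 20.7 ± 4.85 CPM in the LPS + Tan group (SD, n = 4 each), 1.48-fold higher in the LPS group by the fitted fold. The log2 fold change was -0.56 (standard error 0.20, 95% interval -1.002 to -0.13, edgeR adjusted p = 0.924). Its unadjusted p was below 0.05 in each of 18 alternative fits across all genes, with log2 fold changes of -0.69 to -0.41, and its adjusted p was 0.328 or more in each of them. The exact permutation test of its mean log2 CPM, which uses no information from other genes, gave p = 0.0857 (two-sided). This p cannot fall below 0.05 for groups that overlap.

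Il15, the cytokine bound by Il15ra, was among the more variable of the 10 genes, with a coefficient of variation of 30.7% in the LPS group and 61.9% in the LPS + Tan group. It measured 4.53, 8.38, 5.04 and 8.04 CPM in LPS replicates 1 to 4 and 3.69, 3.56, 5.37 and 11.5 CPM in LPS + Tan replicates 1 to 4. LPS + Tan replicate 4 was the highest of the 8 samples and LPS + Tan replicate 2 the lowest. The means were 6.50 ± 1.99 CPM in the LPS group and 6.03 ± 3.73 CPM in the LPS + Tan group (SD, n = 4 each), with a log2 fold change of -0.11, a standard error of 0.38 and a 95% interval of -0.95 to 0.73 (edgeR, adjusted p = 0.989, exact permutation p = 0.714). Without LPS + Tan replicate 4 the log2 fold change was -0.63 (standard error 0.27, edgeR adjusted p = 0.527), at an unadjusted p below 0.05, and without LPS + Tan replicate 2 it was 0.08. Il15 and Il15ra had r = 0.508 over the 8 samples (exact permutation p = 0.2, adjusted p = 0.266) and rho = 0.429 (exact permutation p = 0.299, adjusted p = 0.374), and r was 0.156 without the 2 samples farthest from the median of Il15ra, LPS + Tan replicate 1 and LPS replicate 2. It was 0.696 without the 2 farthest from the median of Il15, LPS + Tan replicate 4 and LPS replicate 2. Without LPS + Tan replicate 4 the r of Il15 and Il15ra was 0.768 (exact permutation p = 0.0433).

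Il2rg, the common gamma chain of lymphocytes and myeloid cells, measured 186, 167, 194 and 179 CPM in LPS replicates 1 to 4 and 180, 124, 161 and 224 CPM in LPS + Tan replicates 1 to 4. The LPS + Tan group held both the highest and the lowest of the 8 samples, replicates 4 and 2. The means were 182 ± 11.6 CPM in the LPS group and 172 ± 41.6 CPM in the LPS + Tan group (SD, n = 4 each), a log2 fold change of -0.07 (standard error 0.16, 95% interval -0.42 to 0.27, edgeR adjusted p = 0.982, exact permutation p = 0.629).

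Il7r, the IL-7 receptor alpha chain of T cells and innate lymphoid cells, measured 7.47, 7.24, 9.75 and 6.87 CPM in LPS replicates 1 to 4 and 4.95, 11.7, 7.63 and 5.64 CPM in LPS + Tan replicates 1 to 4. The LPS samples lay within the range of the LPS + Tan group. The log2 fold change of Il7r was -0.07 (standard error 0.26, 95% interval -0.64 to 0.50, edgeR adjusted p = 0.992, exact permutation p = 0.686). Set beside 14 T cell markers, Il7r had r = 0.497 with their mean log2 CPM (exact permutation p = 0.212, adjusted p = 0.266, rho = 0.571, exact permutation p = 0.151, adjusted p = 0.374) and r = 0.314 without the 2 samples farthest from the median of the markers, LPS + Tan replicate 4 and LPS replicate 4. Without the 2 farthest from the median of Il7r, LPS + Tan replicates 1 and 2, its r was 0.828 (exact permutation p = 0.0264), and it was 0.873 (exact permutation p = 0.0101) without LPS + Tan replicate 1. Il2rg had r = -0.637 with the same markers (exact permutation p = 0.0832, adjusted p = 0.208, rho = -0.429, exact permutation p = 0.299, adjusted p = 0.374), -0.433 without the 2 samples farthest from the median of the markers, 0.144 without the 2 farthest from the median of Il2rg, LPS + Tan replicates 2 and 4, and -0.77 without LPS replicate 3 (exact permutation p = 0.0319).

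Il10, the cytokine that restrains activated macrophages, measured 7.88, 6.76, 5.75 and 4.46 CPM in LPS replicates 1 to 4 and 3.64, 12.3, 4.35 and 5.98 CPM in LPS + Tan replicates 1 to 4. LPS + Tan replicate 2 was the highest of the 8 samples, and LPS + Tan replicates 1 and 3 were the lowest. The means were 6.21 ± 1.46 CPM in the LPS group and 6.56 ± 3.92 CPM in the LPS + Tan group (SD, n = 4 each). The log2 fold change was 0.08 (standard error 0.36, 95% interval -0.71 to 0.87, edgeR adjusted p = 0.996, exact permutation p = 0.914). Without LPS + Tan replicate 2 it was -0.42 (standard error 0.24, edgeR adjusted p = 0.606), and limma-voom on all 8 samples gave -0.07.

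Il10ra, the chain that binds IL-10 on leukocytes, lay between 26.1 and 36.4 CPM in the LPS group and between 26.4 and 36.2 CPM in the LPS + Tan group. Its log2 fold change was 0.05 (standard error 0.14, 95% interval -0.26 to 0.36, edgeR adjusted p = 0.987, exact permutation p = 0.543). Il10rb, which is widely expressed and also serves the receptors for IL-22 and interferon lambda, lay between 99.7 and 110 CPM in the LPS group and between 103 and 121 CPM in the LPS + Tan group. It varied least of the 10 genes in the LPS group, with a coefficient of variation of 4.21%, and its log2 fold change was 0.09 (standard error 0.08, 95% interval -0.09 to 0.26, edgeR adjusted p = 0.952, exact permutation p = 0.229). The 2 chains had r = -0.122 over the 8 samples (exact permutation p = 0.782, adjusted p = 0.782) and rho = 0.214 (exact permutation p = 0.619, adjusted p = 0.619), and r was -0.23 without the 2 samples farthest from the median of Il10rb and -0.108 without those farthest from the median of Il10ra.

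Il17ra, the signalling chain shared by receptors of the IL-17 family, measured 76.9, 73.6, 131 and 91.0 CPM in LPS replicates 1 to 4 and 86.9, 137, 93.9 and 76.4 CPM in LPS + Tan replicates 1 to 4. In each group a single sample, LPS replicate 3 and LPS + Tan replicate 2, lay well above the others. The means were 93.2 ± 26.5 and 98.6 ± 26.5 CPM (SD, n = 4 each), a log2 fold change of 0.08 (standard error 0.22, 95% interval -0.40 to 0.57, edgeR adjusted p = 0.987, exact permutation p = 0.686).

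**Figure D2:**
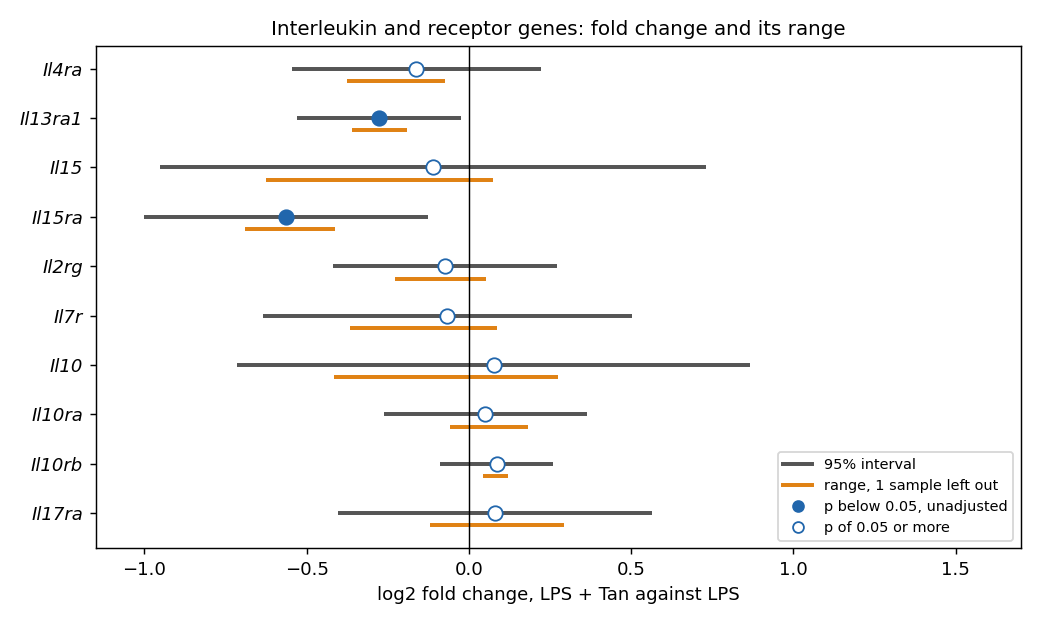
Log2 fold change of LPS + Tan against LPS for the 10 genes (points, filled where the unadjusted edgeR p was below 0.05), with its 95% interval (grey) and the range over the 8 fits that leave out a sample (orange). Il15ra and Il13ra1 are the filled points, and the orange range crosses 0 for Il15, Il2rg, Il7r, Il10, Il10ra and Il17ra.

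The same samples were extreme for several genes. LPS + Tan replicate 2 was the highest of the 8 samples for 5 of the 10 genes (Il4ra, Il7r, Il10, Il10rb and Il17ra) and the lowest for 2 (Il15 and Il2rg). LPS + Tan replicate 1 was the lowest for 5 (Il4ra, Il13ra1, Il15ra, Il7r and Il10). LPS replicate 3 was the highest of its group for 6 of the 10. The coefficient of variation was larger in the LPS + Tan group than in the LPS group for 8 of the 10 genes, and over both groups it ran from 4.21% to 61.9%.

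**Figure D3:**
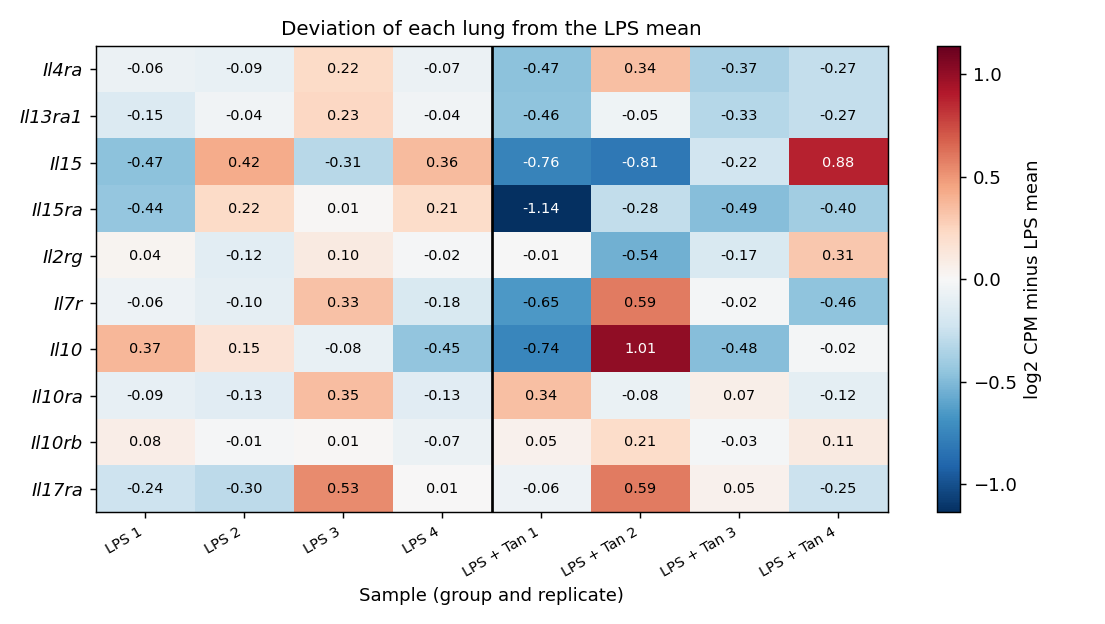
Log2 CPM of each gene in each sample minus the mean log2 CPM of the LPS group, with the LPS samples to the left of the line and the LPS + Tan samples to the right (red higher, blue lower). Il15ra is below 0 in all 4 LPS + Tan samples, lowest at -1.14 in replicate 1, and Il10 runs from -0.74 in LPS + Tan replicate 1 to 1.01 in LPS + Tan replicate 2.

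To compare levels between genes, the FPKM values were used, in which counts are divided by gene length. The order over the 8 samples ran from Il2rg, at 106 ± 15.6 FPKM (SD, n = 8), through Il4ra at 65.4 ± 12.02, Il10rb at 45.6 ± 2.96, Il13ra1 at 39.8 ± 5.23 and Il17ra at 24 ± 6.04 FPKM. Il10ra followed at 8.40 ± 1.31 FPKM, Il15ra at 5.05 ± 1.41, Il10 at 3.04 ± 1.30, Il15 at 2.22 ± 0.956 and Il7r at 1.84 ± 0.513 FPKM (SD, n = 8 for each). The mean level of Il2rg was 57.8 times that of Il7r. Neighbours in this order had overlapping ranges over the samples, except that Il17ra did not overlap Il10ra and Il10ra did not overlap Il15ra. The level of Il4ra was 1.64 times that of Il13ra1, that of Il10rb 5.43 times that of Il10ra, and that of Il15ra 2.28 times that of Il15, all in FPKM. Both cytokines and the lymphoid receptor Il7r were thus the lowest of the 10 per length.

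**Figure D4:**
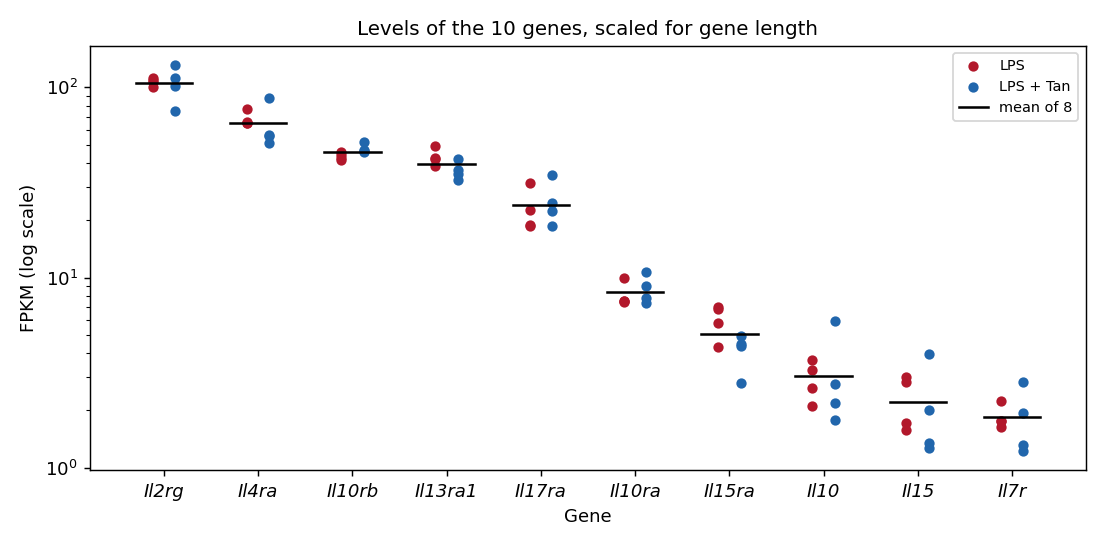
FPKM (log axis) of the 10 genes in order of their mean level, with a point for each LPS (red) and LPS + Tan (blue) sample and a line at the mean of all 8. The 5 most abundant receptor chains lie above every sample of Il10ra and of the 4 genes to its right, whose highest value is 10.7 FPKM.

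Of 9 other ligands of common gamma chain and type 2 receptors, 3 were tested, and 0 passed an unadjusted p of 0.05 (median log2 fold change 0.11). Il2, Il4, Il13 and Il21 had 3, 8, 1 and 7 counts over all 8 samples and could not be tested, and Il9 and Il25 were not among the genes of the tables. The most abundant tested ligands were the epithelial alarmins Il33, at 26.1 and 23.2 CPM, and Tslp, at 1.697 and 1.92 CPM, in the LPS and LPS + Tan groups. Of 7 other receptors of this kind, 5 were tested and 0 passed, with a median of -0.00, among them Il2rb, the signalling chain of the IL-15 receptor, at 34.4 CPM in both groups (log2 fold change -0.00, standard error 0.25), and Crlf2, the TSLP receptor, at 18.3 and 18.9 CPM. Of 9 other genes of the IL-10 family, 5 were tested and 0 passed (median -0.25), with Ifnlr1, the interferon lambda receptor, at 19.0 and 22.9 CPM and Il20rb at 4.28 and 3.08 CPM. Of these 5, 2 were lower at an unadjusted p below 0.05 by DESeq2 (2.08% of all genes it tested were lower), and without LPS + Tan replicate 2 there was 1 higher and 1 lower.

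Of 11 other IL-17 ligands, receptors and adaptors, 9 were tested, and 1 was lower at an unadjusted p below 0.05, where 2.25% of all tested genes were lower. This was Il17a, which had 22, 23, 15 and 40 counts in LPS replicates 1 to 4 and 0, 11, 4 and 18 counts in LPS + Tan replicates 1 to 4. The groups of Il17a overlapped, and its log2 fold change was -1.61 (standard error 0.72, edgeR adjusted p = 0.924), and its unadjusted p was below 0.05 in 11 of the 18 fits that tested it. The most abundant genes of this list were Traf6, at 51.4 and 48.0 CPM, and Il17rd, at 32.2 and 39.7 CPM. The median of the list was -0.10.

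Downstream of the receptors, 11 genes for kinases, STAT factors and adaptors were tested. Irs1, an adaptor of the IL-4 receptor and of insulin signalling, was higher in the LPS + Tan group, at 12.6 ± 3.35 against 8.15 ± 1.12 CPM (SD, n = 4), a log2 fold change of 0.63 (standard error 0.20, edgeR adjusted p = 0.924). It was the 1 gene of the 11 that was higher at an unadjusted p below 0.05, where 2.87% of all tested genes were higher. The other 10 did not pass an unadjusted p of 0.05, and the median of the list was -0.04. Stat3, which carries the IL-10 signal, was at 446 and 378 CPM with a log2 fold change of -0.24 (edgeR, adjusted p = 0.931), and Jak1 was at 392 and 380 CPM with a log2 fold change of -0.04. Without LPS + Tan replicate 2, 3 of the 11 were lower at an unadjusted p below 0.05, against 0 with all samples, and the share of all tested genes lower rose from 2.25% to 5.06%.

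Genes induced by IL-4 and IL-13 were examined next, with 23 of 25 tested. All lungs had LPS, and Il4 and Il13 had 8 and 1 counts over all 8 samples. Whether signals other than IL-4 and IL-13 set the levels of these genes was not tested. Of the 23, 4 were lower in the LPS + Tan group at an unadjusted p below 0.05 and 0 were higher, where 2.25% of all tested genes were lower and 2.87% higher. In this list 15 lay below 0, against 48.2% of all tested genes, with a median log2 fold change of -0.14 against 0.007. Retnla, which encodes RELM-alpha, measured 755, 868, 988 and 563 CPM in LPS replicates 1 to 4 and 244, 541, 297 and 547 CPM in LPS + Tan replicates 1 to 4. The groups of Retnla did not overlap, and its log2 fold change was -0.96 (standard error 0.28, edgeR adjusted p = 0.922). Ccl22, a chemokine of dendritic cells and macrophages, had a log2 fold change of -0.97 (standard error 0.23, edgeR adjusted p = 0.850), but an adjusted p of 0.0270 with DESeq2 and 0.0498 with the likelihood ratio test of edgeR. Retnlb and Pdcd1lg2, the gene of the checkpoint ligand PD-L2, had log2 fold changes of -1.52 and -0.86 (edgeR, adjusted p = 0.850 and 0.895), Retnlb on 96 counts in all. Under the alternatives 3 to 5 genes of this list were lower, 5 of them without LPS + Tan replicate 2 or 3, where 5.06% and 1.88% of all tested genes were lower, and at most 1 was higher.

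The macrophage genes Arg1 and Mrc1, which the study measured by qPCR beside Il10, did not pass the same threshold in the RNA-seq data. Arg1, an arginase of alternatively activated macrophages, measured 35.3, 8.89, 30.1 and 21.1 CPM in LPS replicates 1 to 4 and 38.9, 47.3, 31.6 and 30.3 CPM in LPS + Tan replicates 1 to 4. LPS replicate 2 was the lowest of the 8, and the log2 fold change of Arg1 was 0.63 (standard error 0.34, 95% interval -0.13 to 1.395, edgeR adjusted p = 0.924). Mrc1, which encodes the mannose receptor CD206, had 147 ± 32.1 CPM in the LPS group and 150 ± 30.3 CPM in the LPS + Tan group (SD, n = 4 each), with a log2 fold change of 0.03 and a 95% interval of -0.37 to 0.43 (edgeR, adjusted p = 0.998). Chil3, another gene of this list, was at 1378 and 1394 CPM.

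The qPCR primers of the study for Il10 are shown because they bear on which Il10 transcript they match. Capitals in the forward primer mark bases that differ from the GENCODE M21 transcript Il10-201 of 1310 bases.
Il10 forward: ggttgccaagccttaGcCAC
Il10 reverse: acctgctccactgccttgct
The reverse primer matched bases 473 to 492 of the transcript with 0 mismatches, and the forward primer aligned best to bases 302 to 321 with 4 mismatches, G16T, C18G, A19G and C20A, in which the primer base comes first, the position counts from the 5′ end of the primer and the transcript base comes last. The forward primer as listed had an exact match in 0 of 141767 GENCODE M21 transcripts on either strand, whereas both primers for Arg1 and both for Mrc1 matched their transcripts with 0 mismatches. Whether the listed sequence is the one that was used was not tested.

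Genes that respond to IL-10 in macrophages were all tested, 15 of 15. Whether IL-10, LPS or other signals set their levels here was not tested. Of these, 2 were lower at an unadjusted p below 0.05 and 1 was higher (2.25% and 2.87% of all tested genes), and 13 lay below 0, with a median of -0.11. Zfp36 encodes tristetraprolin, which destabilises cytokine mRNA, and had 160 ± 9.23 CPM in the LPS group and 129 ± 13.8 CPM in the LPS + Tan group (SD, n = 4 each), a log2 fold change of -0.31 (standard error 0.09, edgeR adjusted p = 0.924). Tnfaip3, an inhibitor of NF-kB signalling, had a log2 fold change of -0.36 (edgeR, adjusted p = 0.924), and Cd163, the haemoglobin scavenger receptor of macrophages, one of 0.53 (edgeR, adjusted p = 0.924). The most abundant were Dusp1, at 484 and 342 CPM, and Il1rn, at 337 and 275 CPM, both at an unadjusted p above 0.05. There were 6 lower and 0 higher genes without LPS + Tan replicate 2, where 5.06% of all tested genes were lower, and 1 lower gene without LPS + Tan replicate 1, where 1.33% were.

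Of 15 genes that respond to IL-2, IL-7 and IL-15 in lymphocytes, 0 passed an unadjusted p of 0.05 with all samples, 11 lay below 0 and the median was -0.17. Mcl1, a survival factor, was at 826 and 792 CPM, and Pim1, a kinase induced through STAT5, was at 221 and 183 CPM with a log2 fold change of -0.27 (edgeR, adjusted p = 0.924). Without LPS + Tan replicate 2 the list had 2 lower genes (5.06% of all tested genes were lower in that fit). At most 3 were lower under any alternative, as without LPS + Tan replicate 4, where 4.56% of all tested genes were lower.

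Genes induced by IL-17 in epithelium and stroma had the lowest median of the response lists, -0.34, with 14 of 16 below 0 and 5 lower at an unadjusted p below 0.05. Ccl20, which attracts cells that carry CCR6, measured 10.1, 13.7, 6.17 and 5.44 CPM in LPS replicates 1 to 4 and 2.61, 2.82, 3.60 and 4.24 CPM in LPS + Tan replicates 1 to 4. Its groups did not overlap, with a log2 fold change of -1.42 and a standard error of 0.30 (edgeR, adjusted p = 0.688), and an adjusted p of 0.00239 with DESeq2 and 0.0111 with the likelihood ratio test of edgeR. The neutrophil chemokines Cxcl1, Cxcl2 and Cxcl5 had log2 fold changes of -0.44, -0.49 and -0.61 (edgeR, adjusted p = 0.919, 0.924 and 0.924), and Saa3, an acute phase protein, one of -0.38 (edgeR, adjusted p = 0.924). Lcn2, at 5231 and 4154 CPM, had a log2 fold change of -0.33 (edgeR, adjusted p = 0.924), and S100a9, at 2136 and 2164 CPM, one of 0.02. Many of these genes also respond directly to LPS and other cytokines. The count of 5 lower genes was 9 without LPS + Tan replicate 2 and 2 without LPS + Tan replicate 1. Over all tested genes the share lower moved the same way, from 2.25% with all samples to 5.06% and 1.33%.

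**Figure D5:**
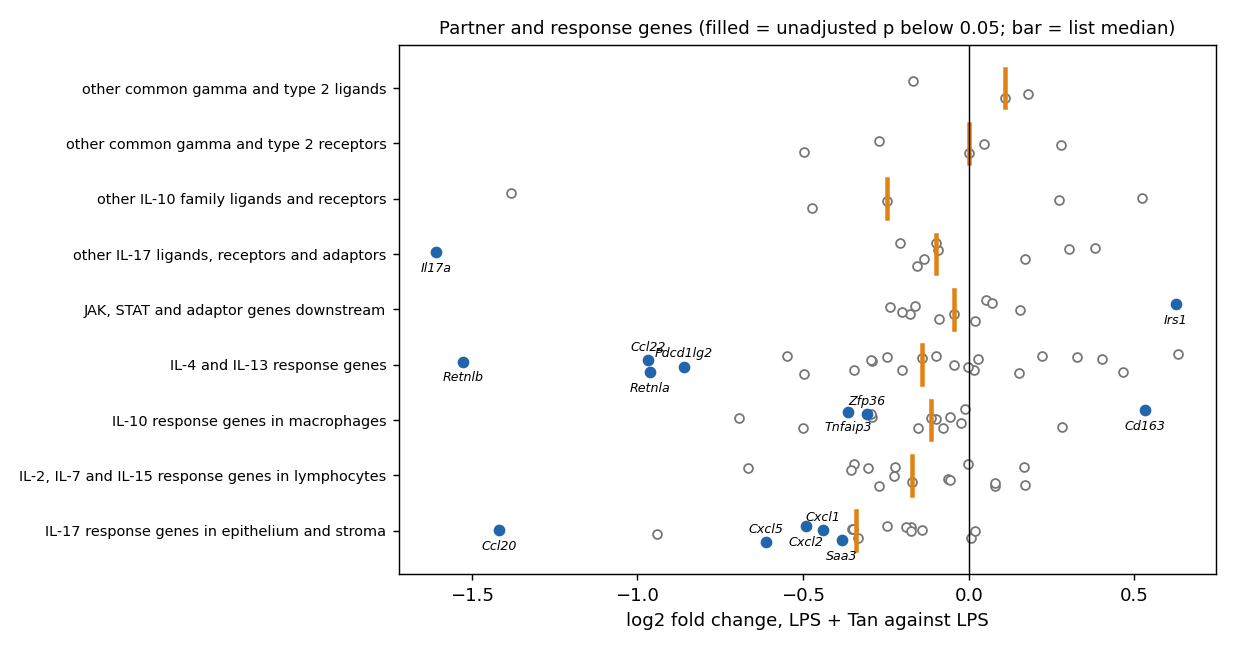
Log2 fold change of LPS + Tan against LPS for the tested partner, downstream and response genes, a point for each gene, filled and named where the unadjusted edgeR p was below 0.05, with a bar at the median of each list. The 5 filled points of the IL-17 response list and the 4 of the IL-4 and IL-13 response list lie below 0, and the list medians run from -0.34 to 0.11.

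Markers of the cells that carry these receptors are given as a measure of composition. Of 14 T cell, 9 NK cell and 9 B cell markers, 0 passed an unadjusted p of 0.05, with medians of 0.07, 0.14 and -0.11. Their summed levels were 55.8 to 75.2 CPM in the LPS group and 54.4 to 85.1 CPM in the LPS + Tan group for T cells, 96.5 to 213 and 79.5 to 236 CPM for NK cells, and 31.7 to 52.5 and 28.2 to 41.6 CPM for B cells. LPS + Tan replicate 2 had the highest sum of T cell and of NK cell markers of the 8 samples, 85.1 and 236 CPM. Tcf7 and Lck led the T cell list at 18.7 and 9.89 CPM in the LPS group, Gzma and Nkg7 the NK list at 110 and 12.7 CPM, and Cd79b and Ms4a1 the B cell list at 9.32 and 7.08 CPM. The part of these cells in the results was not tested.

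Of 10 neutrophil markers 0 passed, with a median of 0.07 and sums of 4339 to 5779 CPM in the LPS group and 4031 to 5717 CPM in the LPS + Tan group. LPS + Tan replicate 2 held the lowest sum of the 8. S100a8 was at 1556 and 1565 CPM. Of 12 macrophage markers, 9 lay above 0 and 1 was higher at an unadjusted p below 0.05 (2.87% of all tested genes were higher). This was C1qa, with a log2 fold change of 0.28 (edgeR, adjusted p = 0.924), and the sums of the list were 1514 to 2562 and 1569 to 2542 CPM. The count of higher markers was 1 to 3 under the alternatives, 2 without LPS + Tan replicate 2 or 4 and 3 without LPS replicate 1, where 5.15%, 4.78% and 3.1% of all tested genes were higher. Of 8 monocyte markers 0 passed (median 0.19), with Itgam at 486 and 514 CPM and Ly6c2 at 121 and 136 CPM, and of 8 dendritic cell markers 6 were tested and 0 passed (median 0.16), with Zbtb46 at 35.8 and 41.3 CPM and Ccr7 at 30.1 and 26.9 CPM.

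Of 11 markers of type 2 innate lymphoid cells, mast cells, eosinophils and basophils, the cells that make IL-4 and IL-13 at the onset of a type 2 response, 9 were tested, 6 lay below 0 and 2 were lower in the LPS + Tan group at an unadjusted p below 0.05 (2.25% of all tested genes were lower). Under the alternatives 0 to 3 were lower, 0 of them with the filter of at least 1 CPM in 4 samples, which removed both genes. Ms4a2, a chain of the IgE receptor, had 30, 26, 28 and 22 counts in LPS replicates 1 to 4 and 13, 14, 13 and 11 counts in LPS + Tan replicates 1 to 4. Its groups did not overlap, and its log2 fold change was -1.09 (standard error 0.28, edgeR adjusted p = 0.850). Mcpt8, a basophil protease, had 49, 65, 14 and 59 counts in LPS replicates 1 to 4 and 8, 26, 24 and 9 counts in LPS + Tan replicates 1 to 4, a log2 fold change of -1.51 (standard error 0.53, edgeR adjusted p = 0.924). Cpa3, another of the tested markers, had a log2 fold change of -0.10 (standard error 0.39, edgeR adjusted p = 0.992). Fcer1a and Areg, which were not tested, had 16 and 39 counts in the LPS group and 18 and 22 in the LPS + Tan group. The more abundant Rora and Siglecf, which other cells also express, were at 89.3 and 85.5 CPM and at 6.90 and 7.44 CPM, and the median of the list was -0.10.

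Among structural cells, of 9 alveolar and 6 airway epithelial markers 0 passed (medians -0.03 and -0.05), with Sftpa1 at 2419 and 2339 CPM, Scgb1a1, the secretoglobin of club cells, at 15570 and 13850 CPM and Cyp2f2 at 533 and 665 CPM. Of 7 endothelial markers 2 were higher at an unadjusted p below 0.05, where 2.87% of all tested genes were higher. These were Kdr and Tek, with log2 fold changes of 0.37 and 0.51 (edgeR, adjusted p = 0.924 for both), and the median of the list was 0.19. The most abundant, Cdh5 and Pecam1, were at 1324 and 1193 CPM and at 1079 and 1230 CPM, with log2 fold changes of -0.15 and 0.19, neither at an unadjusted p below 0.05. The summed level was 3421 to 4196 CPM in the LPS group and 3998 to 4287 CPM in the LPS + Tan group. Under the alternatives 0 to 3 endothelial markers were higher, while the share of all tested genes higher ran from 1.69% to 5.15%. Of 19 fits, Kdr was below an unadjusted p of 0.05 in 13 and Tek in 10. Of 8 fibroblast and smooth muscle markers 0 passed (median -0.10), with Pdgfra at 1114 and 977 CPM and Col1a2 at 439 and 401 CPM. All 6 erythroid markers lay below 0 (median -0.51) and 0 passed (4 were lower at an unadjusted p below 0.05 without LPS replicate 2, against 1.91% of all tested genes), with sums of 1426 to 3451 CPM in the LPS group and 1326 to 2171 CPM in the LPS + Tan group. The globin genes Hbb-bs and Hba-a1 led the list, at 1587 and 1087 CPM and at 671 and 558 CPM. Under the alternatives, at most 2 genes were higher and at most 1 was lower in each of the T cell, NK cell, B cell, monocyte, neutrophil, dendritic cell, alveolar, airway and fibroblast lists. Of all tested genes, at most 5.15% were higher and at most 5.06% lower in these fits. The part of red cell RNA in the results was not tested.

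Of the 15706 tested genes, those whose log2 CPM varied most like that of Il15ra over the 8 samples were Kif19a (r = 0.993), Tctex1d4 (r = 0.985), Ccdc30 (r = 0.974), Steap1 (r = 0.961) and Vps37a (r = 0.958). Their own log2 fold changes were -0.40, -0.33, -0.38, -0.93 and -0.18. They are the extremes of a search over all tested genes in 8 samples and are given as a description.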

How the data were processed

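RNA-seq libraries were made from lung of 4 LPS and 4 LPS + Tan samples, grouped by the treatment in the labels. The authors deposited raw read counts for 24584 genes, with no normalization, and FPKM values of the same genes, which equal the deposited counts divided by gene length and sample total (within 0.1% in 22534 of 22534 genes with counts in at least 2 samples). The submitters' processing notes name the builds GRCm38 and mm10. Aligner, read counter and strand setting were not given in the sources used here. Different extraction and library kits are named in the labels and the methods. No column of sample values was left without a sample (0 columns).

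Counts were tested in R 4.3.3 with edgeR 4.0.16 (filterByExpr, TMM scaling, quasi-likelihood F test, no covariate), with Benjamini-Hochberg adjustment over the 15706 genes kept. The standard error is the size of the log2 fold change over the square root of F. Correlations of log2 CPM were tested by exact two-sided permutation over all 40320 pairings (Python 3.11.15, numpy 2.4.6). Alternatives were DESeq2 1.42.0, limma-voom (limma 3.58.1), edgeR's likelihood ratio test, RLE factors or total counts in place of TMM, no filter or at least 1 CPM in 4 samples, limma on log2(FPKM + 1) and log2(FPKM + 0.1), a block for the replicate number, and leaving out each of the samples. The 10 genes were also compared by an exact permutation test of mean log2 CPM over all 70 arrangements of the group labels. Scripts were tested on simulated data. For pairs of samples within a group, the median squared difference was 7.83 to 22.4 times that of sampling noise, so none was taken as the same library sequenced again. This does not tell whether the samples came from separate mice. The total count, 38895654 to 39931970 per sample, limits the precision of genes with few counts only.

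The 10 genes and the lists of partner, response and marker genes, written from general knowledge, were chosen with earlier results of these data known. Of 236 list genes, 232 were in the tables. The text names all 10 genes, from each list the genes at an unadjusted p below 0.05 (at most the 5 lowest p) and the 2 most abundant tested genes, Arg1 and Mrc1, and the 5 genes most correlated with the gene of lowest p. Untested ligands and the markers Cpa3, Fcer1a and Areg were named in addition. Lists were described by counts and medians and not tested as sets. List counts under the alternatives, the permutation test of the 10 genes and correlations with group means subtracted or without the 2 samples farthest from the median of the other measure were added after seeing the data. Promoters and loci are RefSeq's GRCm38.p6 (23807 of the 24584 symbols matched), transcripts GENCODE M21, and primers the study's supplement. The qPCR and protein measurements of the study were not used here.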

Additional observations from a re-analysis of the deposited data

Results flagged for a closer look

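A sample stood far from the other 3 of its group, by its distance in log2 CPM from the closest sample divided by the group's range, in 6 of 142 groups of 4 samples examined. Chance gives about 1 in 20, or 7.1, so this number is no more than chance gives. Of the 20 groups of the 10 receptor and cytokine genes, 2 were among them. LPS replicate 3 was the highest of the LPS group for Il4ra, at 418 CPM with a share of 0.926, and for Il10ra, at 36.4 CPM with a share of 0.926. It was also the highest for the T cell transcription factor Tcf7, at 23.5 CPM with a share of 0.877.

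In the other lists, LPS replicate 4 was the lowest of the LPS group for Cxcl5, at 6.84 CPM with a share of 0.894. In the LPS + Tan group, replicate 1 was the lowest for Il17a, at 0 counts with a share of 0.88 on a log scale that needs a floor for this value, and replicate 2 was the lowest for S100a8, at 1205 CPM with a share of 0.829. No cause was tested for these samples.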

How the results depend on the processing

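Over 180 fold changes, 10 genes under 18 alternatives, 154 kept their direction and their side of an unadjusted p of 0.05, 7 lost the call, 2 gained it and 17 changed sign. All 7 lost calls were those of Il13ra1 and Il15ra kept its call in all 18. The gains were Il4ra without LPS + Tan replicate 2 and Il15 without LPS + Tan replicate 4. Of the sign changes, 14 came from leaving out a sample and 3 were those of Il10, at -0.013 by limma on log2(FPKM + 0.1), -0.068 by limma-voom and -0.047 with the replicate block. The exact permutation test of each gene, a change of test chosen after seeing the data, put both Il13ra1 (p = 0.0571) and Il15ra (p = 0.0857) above 0.05. With 4 against 4 samples it must do so for genes whose groups overlap, so it is no separate check of these calls. The difference of Il10 in mean log2 CPM was -0.058. With a sample left out, the log2 fold change ran from -0.626 to 0.075 for Il15, from -0.227 to 0.054 for Il2rg, from -0.367 to 0.086 for Il7r, from -0.416 to 0.275 for Il10, from -0.057 to 0.182 for Il10ra and from -0.12 to 0.292 for Il17ra. The number of the 10 genes lower at an unadjusted p below 0.05 was 1 with total counts only, where 1.52% of all tested genes were lower. It was 1 to 3 with a sample left out, where 1.33% to 5.06% of all tested genes were lower. The 3 came without LPS + Tan replicate 2, the fit with 5.06%. With a sample left out, 0 to 2 of the 10 had groups that did not overlap, 2 without LPS replicate 1 or LPS + Tan replicate 2, where 5.81% and 9.74% of all tested genes did not overlap, against 2.73% with all samples.

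Over all tested genes, the number lower at an unadjusted p below 0.05, 353, was 569 without a filter and 212 to 806 with a sample left out, and the number higher, 451, was 268 to 820 with a sample left out, the extremes being LPS + Tan replicates 1 and 2. At an adjusted p below 0.05 the count was 35 by DESeq2, 23 by edgeR's likelihood ratio test and 0 to 1 with a sample left out, against 0. Correlations with a sample left out ran from 0.306 to 0.768 for Il15 with Il15ra, from -0.342 to 0.056 for Il10ra with Il10rb, from 0.268 to 0.873 for Il7r with the T cell markers and from -0.77 to -0.412 for Il2rg with them, and r of Il4ra with Il13ra1 was 0.765 (exact permutation p = 0.0806) without the 2 samples farthest in Il13ra1. Without the 2 samples farthest from the median of the other measure, chosen after seeing the data, r was 0.828 for Il7r with the T cell markers (exact permutation p = 0.0264) and 0.144 for Il2rg with them. The cause of these changes was not tested, beyond the smaller number of samples or genes that an alternative leaves.

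Samples with the same replicate number did not deviate together (correlations 0.123, -0.031, -0.148 and 0.02), and 0 of 4 LPS samples correlated best with the LPS + Tan sample of their number, so the numbers were not taken as pairs. With the replicate number as a block, edgeR gave Il15ra a log2 fold change of -0.575 (adjusted p = 0.513) and Il13ra1 one of -0.277 (adjusted p = 0.948), and the block changed no call of the 10 genes. No scaling moved the median log2 fold change of all genes beyond 0.049. Depth limits Il17a, Retnlb, Ms4a2 and Mcpt8, with 133, 96, 157 and 254 counts in all. Il2, Il4, Il13 and Il21 had too few counts to be tested, and low depth and absent expression cannot be told apart there.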
